A study of Mus musculus with 12 samples.

Results

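The genes described here are 10 that mark astrocytes in the mature brain: Aqp4, Aldh1l1, Gfap, S100b, Gja1, Gjb6, Slc1a2, Slc1a3, Sparcl1 and Clu. They were taken as a list of names, chosen with earlier results of these data known. Matching to Ensembl identifiers through the gene symbols gave 1 identifier each among the 50600 in the count tables. Their RNA was counted in cerebral cortices of C57BL/6 mice taken at E11, E13 and E17 (embryonic days) and at P1 (postnatal day), with 3 libraries at each age (A, B and C). No genotype, sex or treatment separates the groups in the labels, and all 12 libraries are untreated cortex. Each library was made from poly(A)+ RNA of the cortex of 1 embryo or pup, the 3 animals of an age coming from different litters, and the series as a whole concerns zinc in the forming cortex. Because whole cortex was lysed, a lower level can come from fewer cells of a type or from less RNA per cell, and these cannot be told apart.

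Astrocytes are the glial cells that clear glutamate from synapses, couple to each other through gap junctions, buffer water and ions around vessels with their endfeet, and secrete proteins that act on synapses. In the cortex they descend from radial glia, the stem cells that first make neurons and switch to making glia late in embryonic life, and astrocyte numbers grow mostly after birth. Several genes used as astrocyte markers in the adult are already active in radial glia, Slc1a3 and Gja1 among them, whereas Gfap and Aqp4 are low in mouse radial glia. Most of the genes are not private to astrocytes: S100b is also made by oligodendrocyte lineage cells, Clu by choroid plexus, Sparcl1 by vessels and some neurons, and Gja1 and Gjb6 by meningeal fibroblasts and other non-neural cells.

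Total counts were 28173745 to 45858712 per library. Transcription factors of the cortex were detected at every age: in the order E11, E13, E17, P1, Emx1, a factor of dorsal forebrain progenitors, had means of 95.5, 119, 35.0 and 40.4 CPM (counts per 1000000 counts of the scaled library, the unit of levels from here on), and Tbr1, a factor of early cortical neurons, had means of 100.9, 219, 296 and 189.6 CPM. Markers of other tissues were higher in the 2 early ages. The 8 meningeal fibroblast markers summed to 1196 to 1444 CPM at E11 and 822.5 to 1124 CPM at E13, and to 41.5 to 51.4 CPM at E17 and 34.5 to 81.8 CPM at P1. The 7 choroid plexus markers summed to 86.8 to 264 CPM at E11 and 39.0 to 389.5 CPM at E13, where library C had 39.0 CPM and libraries A and B had 389.5 and 342.7 CPM. At E17 they summed to 0.610 to 8.81 CPM and at P1 to 1.44 to 1.73 CPM. Red cell genes summed to 782.5 to 1762 CPM at E13, against 5742 to 16480 CPM at E11. The part of these cells in the results was not tested.

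All 10 genes passed the filter on low counts, and all 10 differed across the 4 ages (edgeR quasi-likelihood test, adjusted p below 0.05), a call made for 90.2% of the 17847 genes tested. S100b passed the filter only through its highest age: 103 of its 139 counts were at P1, so its calls are a product of that filter too. Between E11 and P1, 8 genes rose and 2 fell (Gja1 and Gjb6), where 82.3% of all tested genes changed, 40.5% upward and 41.8% downward. In steps, the genes separated by time of change. E13 compared with E11 had 4 of 10 higher and none lower, where 22.6% of all genes were higher and 17.5% lower (40.1% changed). In the comparison of E17 with E13, 8 were higher and 2 lower, where 36.8% of all genes were higher and 37% lower (73.8% changed). P1 compared with E17 had 7 higher and none lower, where 24% of all genes were higher and 25.9% lower (49.9% changed). The median log2 fold change of the 10 genes was 0.65, 1.59 and 0.79 for these steps and 3.43 for P1 against E11. Over all tested genes it was 0.0043, -0.0357, -6e-04 and -0.0359, and with Gjb6 set to its bound where an age had no counts the medians of the 10 were the same. Libraries of the 2 ages did not overlap for 5 of the 10 genes between E13 and E11 (51.8% of all genes), for 10 between E17 and E13 (76.1%), for 8 between P1 and E17 (62.4%) and for 10 between P1 and E11 (84.5%). At E13 against E11 neither share of the 10 genes, changed or not overlapping, was above that of all genes.

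**Figure D1:**
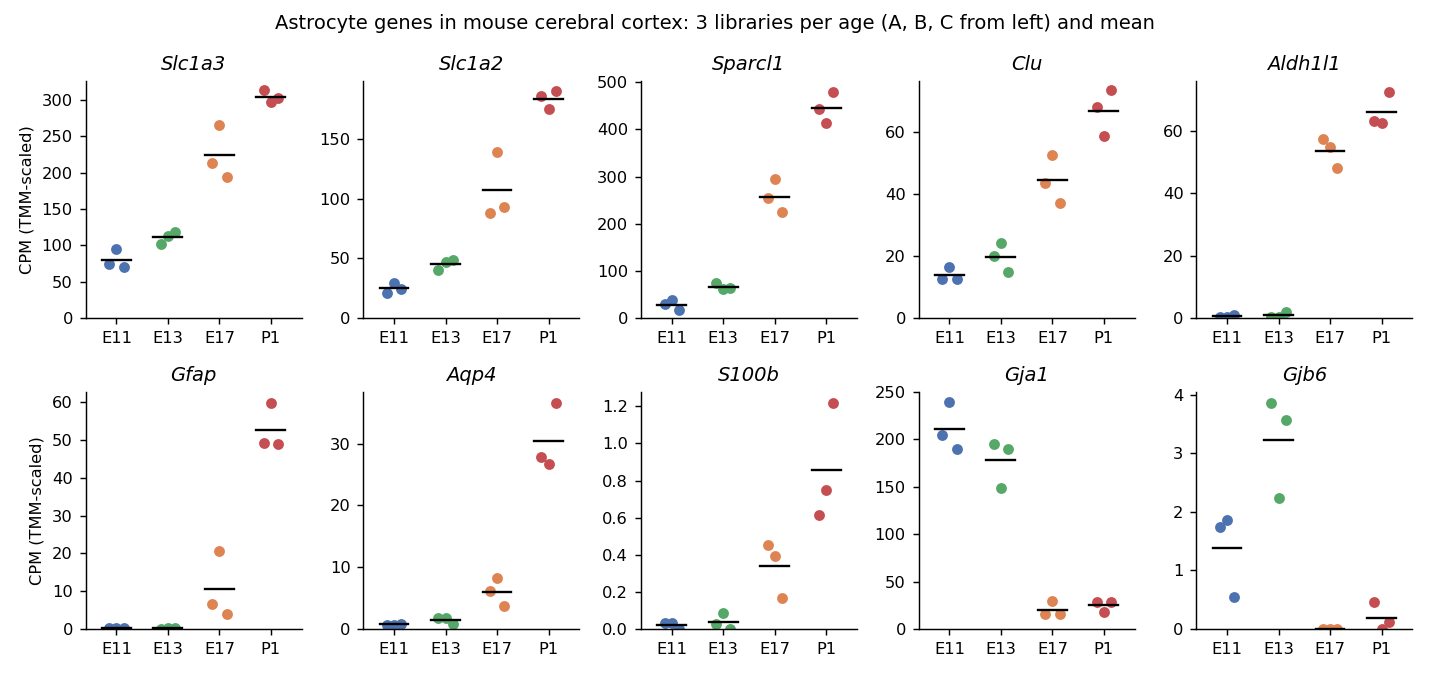
Level of each astrocyte gene (CPM, TMM-scaled, linear axis from 0) in the 12 libraries by age, with libraries A, B and C from left to right and the mean of 3 as a bar. Slc1a3, Slc1a2, Sparcl1 and Clu climb across all 4 ages, Aldh1l1, Gfap, Aqp4 and S100b are near the floor at E11 and E13, and Gja1 and Gjb6 are high only at the 2 early ages.

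The glutamate transporters were present from the first age and increased at each step. Slc1a3 (GLAST, ENSMUSG00000005360) takes up glutamate and is the transporter shared by radial glia and astrocytes. It had 75.0, 94.8 and 70.5 CPM in E11 libraries A, B and C, 101.7, 112.8 and 118.4 CPM at E13, 213.6, 265.0 and 193.9 CPM at E17, and 313.5, 296.5 and 301.9 CPM at P1. No library of one age overlapped the next. The log2 fold change was 0.47 ± 0.12 for E13 against E11 (SE, 3 libraries per age; adjusted p = 0.00995), 1.01 ± 0.12 for E17 against E13 (adjusted p = 1.01e-05) and 0.44 ± 0.12 for P1 against E17 (adjusted p = 0.00991). The first of these fell to 0.34 (adjusted p = 0.111) when E11 C, E13 C and E17 A were left out together. Over the whole span Slc1a3 rose 3.79-fold. While it rose, the 12 radial glia markers summed to 3080 to 3237 CPM at E11, 3018 to 3071 CPM at E13, 2362 to 2748 CPM at E17 and 1754 to 1886 CPM at P1. That sum mixed 2 directions: at E17 against E13, 8 of the 12 genes fell and 3 rose (37% and 36.8% of all genes). Vim averaged 301 ± 16.3 CPM at E17, against 1065 ± 29.3 CPM at E13, and Ptprz1 897 ± 70.4 CPM, against 206 ± 30.4 CPM.

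Slc1a2 (GLT-1, ENSMUSG00000005089), the transporter that does most glutamate uptake in the adult forebrain, rose more steeply. Its levels were 21.0, 29.7 and 24.4 CPM at E11, 40.5, 47.1 and 49.0 CPM at E13, 88.0, 139.5 and 93.3 CPM at E17, and 185.8, 175.5 and 190.1 CPM at P1, again without overlap between neighbouring ages. It rose by 0.86 ± 0.17 in log2 at E13 against E11 (adjusted p = 0.00241), by 1.23 ± 0.17 at E17 against E13 (adjusted p = 4.09e-05) and by 0.78 ± 0.16 at P1 against E17 (adjusted p = 0.00222), which made 7.34-fold for P1 against E11. Per kb of exon sequence, the ratio of Slc1a2 to Slc1a3 was 0.204 ± 0.0215, 0.267 ± 0.00636, 0.308 ± 0.0374 and 0.393 ± 0.0140 from E11 to P1 (SD, n = 3 each). The 3 P1 ratios (0.385 to 0.409) lay above the highest E17 ratio (0.342), while the lowest E17 ratio (0.268) lay under the highest E13 ratio (0.271). Among the other 5 genes of the Slc1 family, 4 were tested. Slc1a1, the transporter of neurons, averaged 1.18, 13.3, 77.3 and 106 CPM, and rose by 3.47 on the log2 scale at E13 against E11 and by 2.54 at E17 against E13. Slc1a5, a transporter of neutral amino acids, averaged 50.3, 39.7, 5.74 and 4.10 CPM and fell by 2.80 on the log2 scale at E17 against E13 (adjusted p = 5.75e-11).

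The secreted proteins Sparcl1 and Clu also climbed across the ages. Sparcl1 (hevin, ENSMUSG00000029309), a matrix protein that promotes synapse formation, had 29.6, 37.5 and 17.6 CPM at E11, 74.7, 61.3 and 63.8 CPM at E13, 253.9, 293.7 and 224.7 CPM at E17, and 443.5, 414.3 and 479.1 CPM at P1. At P1 it was the most abundant of the 10 genes, and no library overlapped a neighbouring age. It rose by 1.24 ± 0.22 in log2 at E13 against E11 (adjusted p = 0.00147), by 1.95 ± 0.22 at E17 against E13 (adjusted p = 1.23e-05), and by 0.79 ± 0.21 at P1 against E17 (adjusted p = 0.00971). P1 stood 15.8-fold above E11. Beside it, the 8 endothelial markers summed to 150.7 to 184.2 CPM at P1, against 238.8 to 296.2 CPM at E11, and the 10 neuronal markers to 10970 to 11360 CPM at P1, against 1406 to 1613 CPM at E11. The part of either cell type in the Sparcl1 level was not tested. In the rest of the SPARC family the direction was mixed, with 4 of 7 higher and 2 lower at E17 against E13 (36.8% of all genes higher and 37% lower). The proteoglycan genes Spock1 and Spock2 averaged 156 ± 11.8 and 300.2 ± 38.3 CPM at E17, against 9.13 ± 4.59 and 30.4 ± 4.03 CPM at E13. Sparc, the founding member, which antagonises hevin at synapses, averaged 128 ± 15.0 CPM at E17, against 177 ± 7.42 CPM at E13, a log2 fold change of -0.47 (adjusted p = 0.000356).

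Clu (clusterin, ENSMUSG00000022037), a secreted chaperone and lipid carrier, changed least among the genes that rose by P1 apart from Slc1a3. It had 12.5, 16.5 and 12.6 CPM at E11, 19.9, 24.2 and 15.0 CPM at E13, 43.6, 52.8 and 37.0 CPM at E17, and 68.2, 58.7 and 73.5 CPM at P1. E13 C, at 15.0 CPM, lay under E11 B, at 16.5 CPM, so the first 2 ages overlapped. That step, 0.51 ± 0.19 on the log2 scale (adjusted p = 0.0487), was lost in 14 of 22 alternative settings (adjusted p 0.0112 to 0.208 over all of them). From E13 on the changes were 1.17 ± 0.18 at E17 against E13 (adjusted p = 9.73e-05) and 0.59 ± 0.17 at P1 against E17 (adjusted p = 0.0151). The P1 call was lost with no filter on low counts (adjusted p = 0.0625), without E17 C (0.47, adjusted p = 0.0672) and without P1 C (0.54, adjusted p = 0.0541). Clu was 4.82-fold higher at P1 than at E11. E13 C had the lowest Clu and the lowest choroid plexus sum of its age. E13 A had a higher sum than E13 B and less Clu. Clu was highest at E17 and P1, where the choroid plexus sum was at most 8.81 CPM in any library. The part of choroid plexus in the Clu level was not tested at any age. Per kb, the ratio of Clu to Sparcl1 was 0.449 ± 0.141 at E11, 0.255 ± 0.0722 at E13, 0.147 ± 0.00641 at E17 and 0.128 ± 0.00584 at P1 (SD, n = 3 each).

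Aldh1l1 and Gfap had the largest changes of the genes that rose. Aldh1l1 (ENSMUSG00000030088), a folate enzyme widely used to label astrocytes, had 0.473, 0.442 and 0.956 CPM at E11, 0.318, 0.365 and 2.04 CPM at E13, 57.5, 54.8 and 48.3 CPM at E17, and 63.2, 62.7 and 72.4 CPM at P1. Nearly all of its increase fell between E13 and E17: E17 averaged 81.0% of the P1 level and E13 averaged 1.37% of it. At E17 it was 61.2-fold higher than at E13, a log2 fold change of 5.94 ± 0.42 (adjusted p = 3.28e-07). The E13 mean rested on library C, and without E13 C the change was 7.28. P1 was 0.31 ± 0.29 above E17 on the log2 scale, with all 3 P1 libraries above all 3 E17 libraries, but did not pass the test (adjusted p = 0.416). It passed with only those 2 ages in the fit (adjusted p = 0.008), without E13 C (adjusted p = 0.0486), and with E11 C, E13 C and E17 A left out together (adjusted p = 0.00823). E13 did not differ from E11 past the threshold (log2 fold change 0.49 ± 0.66, adjusted p = 0.59), and without E13 C this value was -0.85. The 2 overlapping transcripts in the GENCODE annotation had 0 counts (antisense Gm15756) and 7 counts (Gm45901) over all 12 libraries, against 13096 for Aldh1l1.

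Gfap (ENSMUSG00000020932) encodes the intermediate filament protein of mature and reactive astrocytes. Its raw counts were 9, 4 and 7 at E11, 4, 4 and 5 at E13, 177, 576 and 173 at E17, and 1846, 2322 and 2047 at P1. As levels these were 0.266, 0.118 and 0.223 CPM at E11, 0.106, 0.112 and 0.154 CPM at E13, 6.70, 20.6 and 4.06 CPM at E17, and 49.2, 59.9 and 48.9 CPM at P1. The embryonic ages E11 and E13 thus overlapped and did not differ past the threshold (-0.70 ± 1.63, adjusted p = 0.772), and the increase was spread over both later steps. At E17 against E13 the log2 fold change was 6.35 ± 0.84 (adjusted p = 6.45e-05), and at P1 against E17 it was 2.35 ± 0.47 (adjusted p = 0.0022). E17 B was the highest of its age and moved both values, which were 5.39 and 3.31 without it. P1 against E11 gave 8.002 ± 0.74, a fold of 256 and the largest change of the 10 genes. Vim, the intermediate filament gene of radial glia, averaged 1080, 1065, 301 and 130 CPM from E11 to P1. Per kb, Gfap was 0.000210 of Vim at E11, 0.000132 at E13, 0.0397 ± 0.0342 at E17 and 0.459 ± 0.0594 at P1 (SD, n = 3).

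Aqp4 (ENSMUSG00000024411), the water channel of astrocyte endfeet, was the gene whose gain came latest together with Gfap. It had 0.709, 0.708 and 0.733 CPM at E11, 1.72, 1.74 and 0.772 CPM at E13, 6.10, 8.27 and 3.66 CPM at E17, and 27.9, 26.7 and 36.6 CPM at P1. At E17 it had reached 19.8% of its P1 level, close to the 19.9% of Gfap, where Slc1a3 had reached 73.7%. The log2 fold change was 2.05 ± 0.32 at E17 against E13 (adjusted p = 0.000102) and 2.36 ± 0.27 at P1 against E17 (adjusted p = 3.42e-05), with no overlap in either step. At E13 all 3 libraries were above those of E11, E13 C only just, and the change of 0.99 ± 0.41 did not pass the test (adjusted p = 0.0758). It passed in DESeq2 (adjusted p = 0.0121), with only those 2 ages in the fit (adjusted p = 0.0433), and without E13 C (1.27, adjusted p = 0.0214), E17 B (adjusted p = 0.0436) or E17 C (adjusted p = 0.0267). The 6 genes of the complex that holds Aqp4 at endfeet, or that act beside it there, were all detected at E11. Kcnj10, the potassium channel of endfeet, averaged 10.6, 21.6, 27.8 and 39.7 CPM, and Dtna, a scaffold protein of the same complex, 12.0, 7.62, 50.02 and 67.5 CPM. Of these 6 genes, 5 rose and none fell at P1 against E11, where 40.5% of all tested genes rose and 41.8% fell. Among 10 other aquaporins, 5 had enough counts to test. Aqp1, the water channel of choroid plexus, fell by 4.46 on the log2 scale at E17 against E13 (0.459 ± 0.0680 CPM at E17, against 10.1 ± 4.63 CPM at E13), and Aqp11 rose in the later steps to 11.2 ± 0.540 CPM at P1, against 6.17 ± 0.817 CPM at E17.

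S100b (ENSMUSG00000033208), a calcium-binding protein, was the rarest gene of the list at the early ages. It had 1, 1 and 0 counts at E11, 1, 3 and 0 counts at E13, 12, 11 and 7 counts at E17, and 23, 29 and 51 counts at P1. As levels, that was 0.164 to 0.455 CPM at E17 and 0.613 to 1.22 CPM at P1. From summed counts, E17 was 8.18 times E13 (95% interval 2.88 to 32.0, counting error only) and P1 43.2 times E11 (11.7 to 361). The fitted change at E17 against E13 was 2.96 ± 0.74 (adjusted p = 0.00268) and 4.18 without E13 B, and that at P1 against E17 was 1.43 ± 0.43 (adjusted p = 0.014). The second was lost without E17 C (1.02, adjusted p = 0.0868) and without P1 C (1.10, adjusted p = 0.0782). As S100b passed the filter on low counts only through P1, both calls are a product of that filter too. Markers of the oligodendrocyte lineage moved with it: their 9 genes summed to 79.5 to 88.8 CPM at E11, 62.8 to 74.8 CPM at E13, 138.8 to 207.5 CPM at E17 and 358.2 to 397.6 CPM at P1. Whether S100b came from that lineage or from astrocytes was not tested.

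The 250 bases upstream of the annotated start are shown for the 4 genes that rose and held a match to any of the motifs searched. They come from RefSeq on GRCm38.p6, which lists 7 of the 10 genes (not Aqp4, Sparcl1 and Clu), and are read 5′ to 3′ on the gene's strand. The motifs, sought on both strands, were the NFI core TTGGC, the STAT site TTCNNNGAA, the CCAAT box CCAAT and the GC box GGGCGG, and capitals mark every match to any of them. The windows are chr6:90550543-90550792 (+ strand) for Aldh1l1, chr10:76253586-76253835 (+ strand) for S100b, chr2:102706188-102706437 (+ strand) for Slc1a2 and chr15:8710808-8711057 (- strand) for Slc1a3.
Aldh1l1: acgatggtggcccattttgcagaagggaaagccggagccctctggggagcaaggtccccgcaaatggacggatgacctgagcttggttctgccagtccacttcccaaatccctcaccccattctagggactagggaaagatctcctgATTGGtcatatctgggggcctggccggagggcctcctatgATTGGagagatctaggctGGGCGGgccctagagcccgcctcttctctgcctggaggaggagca
S100b: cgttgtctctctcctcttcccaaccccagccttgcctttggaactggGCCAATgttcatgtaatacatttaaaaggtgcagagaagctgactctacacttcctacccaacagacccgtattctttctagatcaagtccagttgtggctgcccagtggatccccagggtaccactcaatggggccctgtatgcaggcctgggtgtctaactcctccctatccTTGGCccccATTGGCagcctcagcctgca
Slc1a2: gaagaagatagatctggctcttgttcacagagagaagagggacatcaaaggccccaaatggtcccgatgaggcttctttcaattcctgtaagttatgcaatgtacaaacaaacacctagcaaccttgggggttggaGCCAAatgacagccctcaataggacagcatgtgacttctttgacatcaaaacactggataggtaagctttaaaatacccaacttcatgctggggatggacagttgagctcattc
Slc1a3: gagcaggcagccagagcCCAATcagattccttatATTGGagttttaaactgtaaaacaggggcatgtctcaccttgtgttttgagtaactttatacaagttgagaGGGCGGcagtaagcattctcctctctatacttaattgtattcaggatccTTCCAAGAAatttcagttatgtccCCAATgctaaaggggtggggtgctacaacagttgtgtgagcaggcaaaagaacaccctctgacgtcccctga
Aldh1l1 held 2 CCAAT boxes and 1 GC box. S100b held 3 NFI cores, of which 2 overlapped a CCAAT box. Slc1a2 had 1 NFI core, and Slc1a3 had 1 STAT site, 3 CCAAT boxes and 1 GC box. The same window of Gfap, Gja1 and Gjb6 held none of these letters. Among 32851 promoters of the same length, 41.5% held the NFI core, 33.8% the CCAAT box, 32.7% the GC box and 7.02% the STAT site.

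The gap junction genes ran against the rest. Gja1 (connexin of astrocytes and radial glia, ENSMUSG00000050953) had 204.7, 239.2 and 189.4 CPM at E11, 195.0, 149.0 and 190.1 CPM at E13, 16.1, 29.0 and 15.8 CPM at E17, and 28.4, 17.8 and 28.6 CPM at P1. Both early ages lay far above both later ones, and within each pair of ages the libraries overlapped. At E17 it was 8.82-fold lower than at E13 (log2 fold change -3.14 ± 0.26, adjusted p = 1.27e-06). E13 against E11 was -0.25 ± 0.23 (adjusted p = 0.443) and P1 against E17 was 0.31 ± 0.26 (adjusted p = 0.353), neither past the threshold, though the last passed without E17 B (0.64, adjusted p = 0.0348). At P1 Gja1 stood at 25.0 ± 6.19 CPM, against 211 ± 25.5 CPM at E11 (SD, n = 3 each). Per kb, Gja1 was 2.20 ± 0.0917 times Slc1a3 at E11, 1.34 ± 0.249 times at E13, 0.0739 ± 0.0150 times at E17 and 0.0681 ± 0.0158 times at P1.

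Gjb6 (ENSMUSG00000040055), the other connexin of adult astrocytes, had 59, 63 and 17 counts at E11, 146, 80 and 116 counts at E13, 0 counts in all 3 libraries at E17, and 17, 0 and 5 counts at P1. The E13 libraries held 3.86, 2.25 and 3.58 CPM, above the 1.74, 1.86 and 0.541 CPM of E11, but the difference of 1.22 ± 0.56 did not pass the test (adjusted p = 0.116). At E17 Gjb6 was at least 104.5-fold lower than at E13 (floor of 3 counts over the 3 libraries, adjusted p = 0.000137). With the counting error of both ages included, the E17 to E13 ratio had an upper 95% limit of 0.0118. Against the same floor, P1 was at least 6.015-fold higher than E17, with a lower 95% limit of 4.49 once the counting error of both ages is included, but 1 of 3 P1 libraries was at 0 and the test did not pass (adjusted p = 0.0742). That call was made in DESeq2 (adjusted p = 0.00446), without E11 C (adjusted p = 0.0454) and without P1 B (adjusted p = 0.0226). P1 against E11 gave a log2 fold change of -2.87 ± 0.76 (adjusted p = 0.00574), which was -4.38 without P1 A and -2.27 without P1 B.

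From E13 to E17 the summed markers of meninges fell with both connexins, while those of endothelium fell less and those of mural cells rose. From E11 to E13 the meningeal sum was lower in every library, while Gjb6 was higher in every library, though its difference did not pass the test. Single meningeal genes went both ways in that step, with 1 of 8 called higher and 1 lower (22.6% and 17.5% of all genes). Islr averaged 32.5 ± 4.06 CPM at E13, against 18.7 ± 2.39 CPM at E11, and Lum 44.3 ± 10.2 CPM, against 81.8 ± 11.2 CPM. The 6 markers of mural cells summed to 158.1 to 178.6 CPM at E17, against 98.1 to 113.5 CPM at E13, and the 8 endothelial markers to 172.6 to 211.3 CPM at E17, against 216.3 to 275.2 CPM at E13. Single vessel genes were mixed, with 3 mural genes higher and 2 lower, and 2 endothelial genes higher and 5 lower (36.8% and 37% of all genes). Rgs5 of the mural list averaged 95.6 CPM at E17, against 38.3 CPM at E13, and Tagln 0.380 CPM, against 3.68 CPM. Cdh5 of the endothelial list averaged 22.1 CPM at E17, against 57.9 CPM at E13. The meningeal sums given above were at least 822.5 CPM in every library of E11 and E13 and at most 81.8 CPM in every library of E17 and P1. Of the 8 meningeal genes, 7 were lower at E17 than at E13, where 37% of all genes were lower. Islr of that list averaged 31.4 CPM at E17, against 32.5 CPM at E13. Col1a1, a collagen of fibroblasts, averaged 1.18 ± 0.245 CPM at E17, against 171 ± 38.6 CPM at E13. Slc22a6, another marker of the list, averaged 0.611, 3.71, 0 and 1.13 ± 1.93 CPM from E11 to P1, and was at 0 in all E17 libraries. Its call at E17 against E13 (adjusted p = 0.0214) held in 19 of 22 alternative settings (adjusted p up to 0.104 over all of them). Within P1, library A had the highest meningeal sum (81.8 CPM, against 39.9 and 34.5 CPM in B and C) and the most Gjb6 counts, while B, with 0 Gjb6 counts, had a higher meningeal sum than C, with 5. Gjb2, which pairs with Gjb6 in the inner ear and is expressed in meninges, had the same course: 1.31 CPM at E11, 3.31 CPM at E13, 0 counts at E17 (at least 106.9-fold lower) and 0.283 CPM at P1. Hes1, a Notch target of radial glia, averaged 49.4 and 47.5 CPM at E11 and E13 and 4.92 and 6.03 CPM at E17 and P1. The part of meninges or of radial glia in the changes of Gja1 and Gjb6 was not tested. Among 17 other connexins, 8 were tested, and at E17 against E13 4 rose and 3 fell (36.8% of all genes rose and 37% fell). Gjd2, the connexin of neuronal electrical synapses, averaged 10.9 ± 1.17 CPM at E17, against 1.81 ± 0.484 CPM at E13, a rise of 2.60 in log2 (adjusted p = 0.000808).

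**Figure D2:**
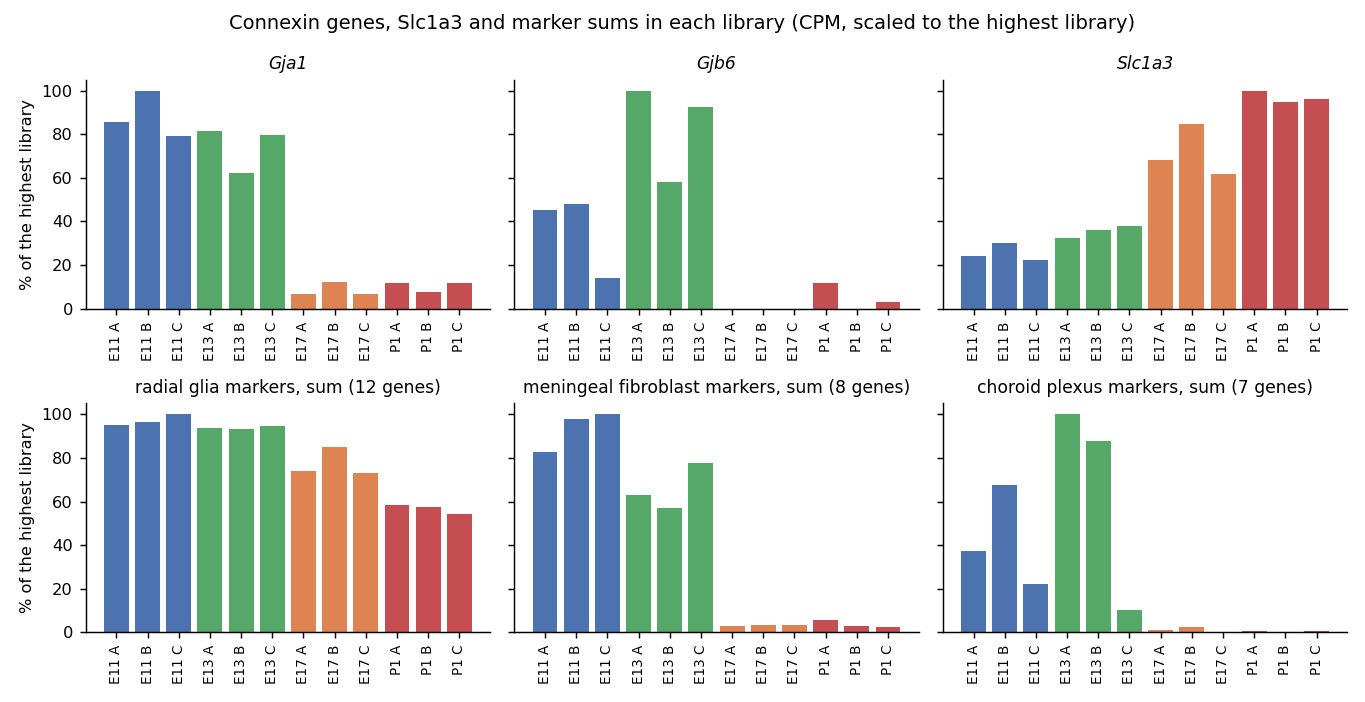
Gja1, Gjb6 and Slc1a3 (upper row) and the summed markers of radial glia, meningeal fibroblasts and choroid plexus (lower row) in each library, as percent of the highest library, with bars from 0. Gja1 and the meningeal sum are high in all E11 and E13 libraries and low in all E17 and P1 libraries, and Gjb6 is at 14.02% in E11 C, next to 11.7% in P1 A. The radial glia sum is at 54.2 to 58.3% at P1, where 9 of its 12 genes were lower than at E11 and 3 higher (41.8% and 40.5% of all genes).

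**Figure D3:**
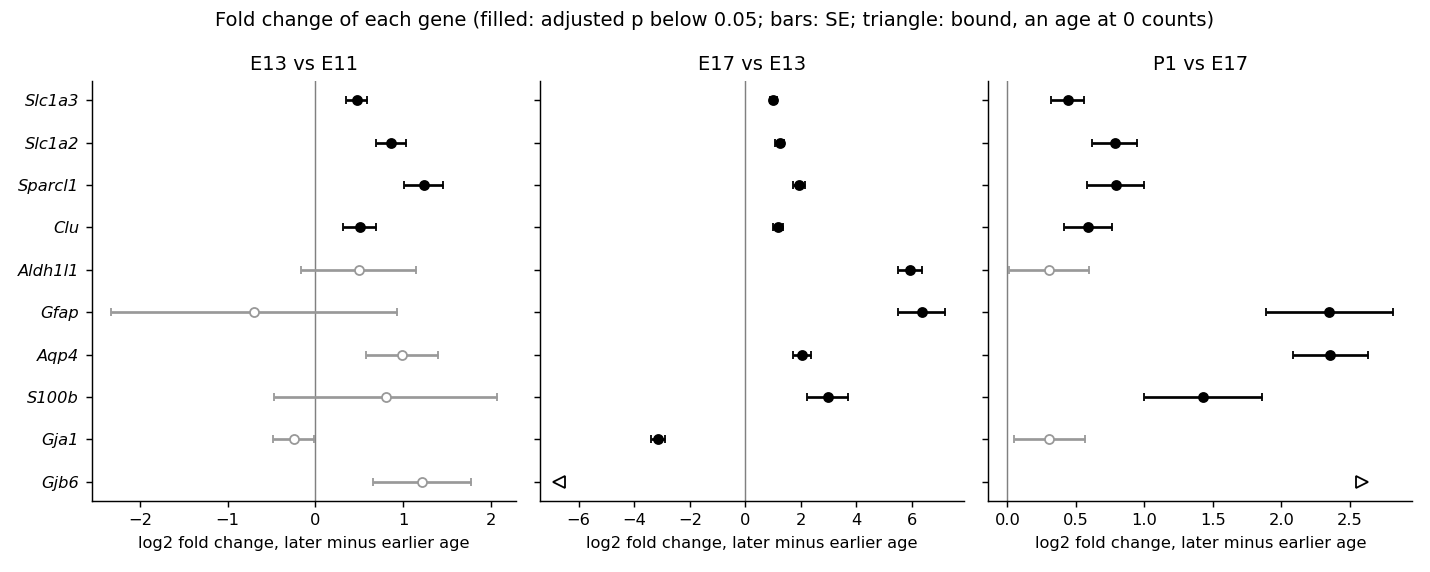
Log2 fold change of each gene (x axis, later minus earlier age) in the 3 consecutive steps, with SE as bars. Filled points passed an adjusted p of 0.05 and triangles are bounds for Gjb6, which had no counts at E17. In the step of E17 against E13, Aldh1l1 at 5.94 and Gfap at 6.35 lie to the right, and Gja1 at -3.14 and the bound of Gjb6 lie to the left.

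Compared per kb of exon sequence, the order of the 10 genes turned over with age. At E11 Gja1 led with 20.6 CPM per kb (18.5 to 23.3), ahead of Sparcl1 with 9.62 and Slc1a3 with 9.38, which overlapped each other. From E13 on Sparcl1 led, with 22.7, 87.7 and 152 CPM per kb at E13, E17 and P1, and Slc1a3 was next at E17 and P1 with 26.3 and 35.6 CPM per kb. Aldh1l1 had rank 7 at E11, 8 at E13 and 4 at both E17 and P1, where it stood at 11.9 and 14.6 CPM per kb. At P1 the libraries of Aldh1l1, Slc1a2 (14 CPM per kb) and Gfap (12.5 CPM per kb) overlapped their neighbours in the order. Clu and Aldh1l1 were not separated at E17, nor were Gfap and Gja1. Gja1 had rank 8 at P1 with 2.43 CPM per kb, under Aqp4 with 4.87, and S100b and Gjb6 were last with 0.579 and 0.0713 CPM per kb.

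**Figure D4:**
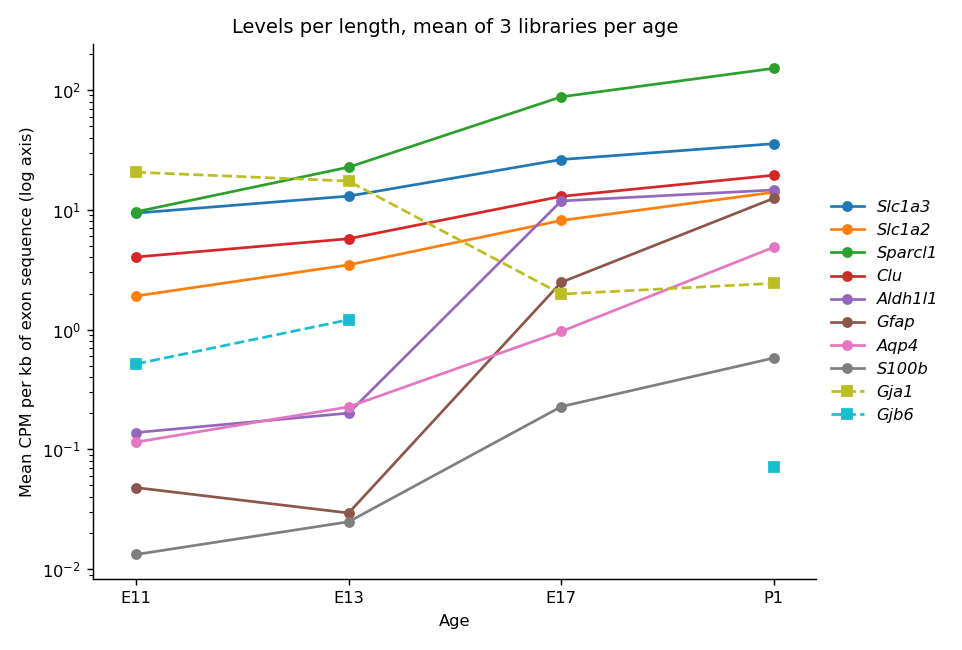
Mean level per kb of exon sequence (log axis) of the 10 genes at E11, E13, E17 and P1, with circles and solid lines for the 8 genes that rose by P1 and squares and dashed lines for the 2 connexins. Gja1 leads at E11 with 20.6 CPM per kb and Sparcl1 at P1 with 152, and Gjb6 has no point at E17, where it had no counts.

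Profiles across the 12 libraries, each centred on its own mean in log2 CPM, fell into a few courses. The smallest root mean square difference between any 2 of the 10 genes was 0.23, for Slc1a3 and Clu, followed by 0.30 for Slc1a2 and Clu and 0.36 for the 2 glutamate transporters. S100b was 0.59 from Sparcl1, and Aqp4 was 0.69 from S100b, 0.78 from Sparcl1 and 1.63 from Gfap. Aldh1l1 and Gfap were 1.12 apart and Gja1 and Gjb6 1.14. The largest difference was 5.62, between Gfap and Gjb6. As a description over 12 libraries that share their ages and depth, the nearest genes in the whole table were Comtd1 (0.11) and Tex264 (0.12) for Slc1a3, Fbxo2 (0.18) and Ppp2r5b (0.21) for Slc1a2, and Eno2 (0.21), the neuronal enolase, and Cacna2d3 (0.21) for Sparcl1. Clu lay nearest to Kcnd1 (0.15) and Pcsk2os1 (0.16). Aqp4 lay nearest to Itih3 (0.28), itself a gene of the wider astrocyte list, and Slc13a5 (0.33). Gfap was nearest to Rxfp1 (0.45) and Ptk2b (0.55), Aldh1l1 to Fam19a2 (0.51) and Col19a1 (0.53), and S100b to Cdkl1 (0.35) and Cds1 (0.38). Gja1 was nearest to Tmem132c (0.23) and Hes1 (0.25), and Gjb6 to Col6a1 (0.70), a collagen of fibroblasts, and Aldh1a2 (0.71), the retinoic acid enzyme of meninges. The median difference to all tested genes was 0.91 for Slc1a3, 1.61 for Gja1 and 3.51 for Gfap.

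**Figure D5:**
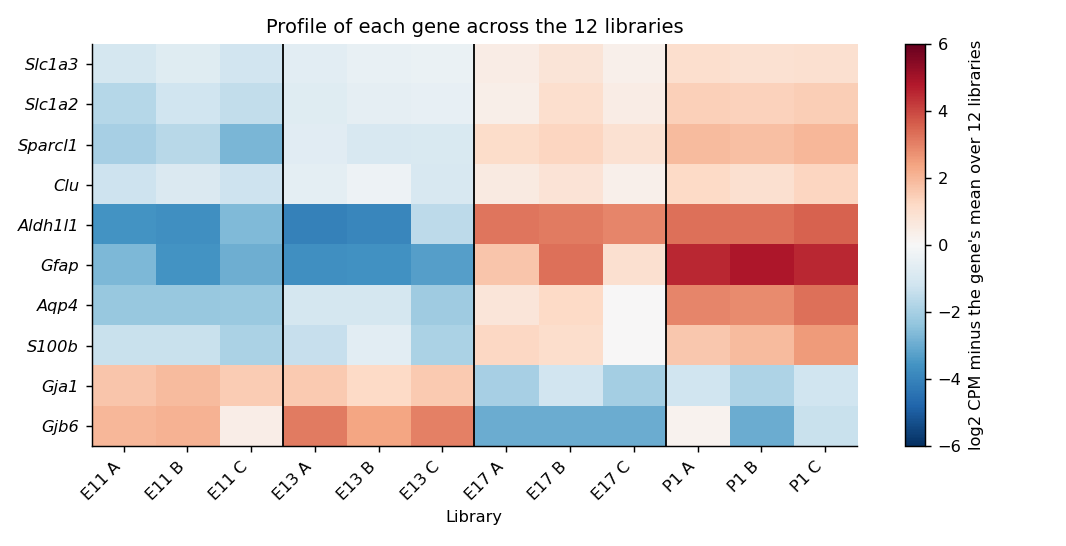
Log2 CPM of each gene minus its mean over the 12 libraries (colour, red above and blue below the mean), with libraries in columns grouped by age. The rows of Aldh1l1 and Gfap span the widest range, E17 B is redder than E17 A and C for Gfap and Slc1a2, and the 2 connexin rows run opposite to the other 8.

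Single animals of an age shifted several of the genes at once. At E17, library B was the highest of the 3 for 7 of the 9 genes with counts (37.6% of all genes), and library C the lowest for 8 of 9 (35.7% of all genes). Among P1 libraries, B was the lowest for 8 of 10 genes (34.6% of all genes) and C the highest for 7 of 10 (36.5%). The radial glia sum was also highest in E17 B (2748 CPM, against 2398 and 2362 CPM in A and C). The spread within E17 differed between the genes, with a coefficient of variation of 85.1% for Gfap, 45.4% for S100b, 38.4% for Aqp4 and 37.0% for Gja1, and of 16.4% for Slc1a3 and 8.91% for Aldh1l1.

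A wider list of 26 other astrocyte genes, of which 25 were tested, moved mostly in the direction of the 8 genes that rose. It had 8 higher and none lower at E13 against E11, 15 higher and 2 lower at E17 against E13, 16 higher and none lower at P1 against E17, and 22 higher and 2 lower at P1 against E11. The shares of all tested genes called in these comparisons were 40.1%, 73.8%, 49.9% and 82.3%, so 8 of 25 and 17 of 25 in the first 2 lay under the share of all genes. Its median log2 fold change was 0.34, 0.88, 0.75 and 2.07 in these comparisons. Hepacam, an adhesion protein that binds connexins in astrocytes, averaged 10.9 ± 3.76 CPM at E17, against 0.154 ± 0.0955 CPM at E13, a log2 fold change of 6.12 ± 0.39 (adjusted p = 2.54e-08). Slco1c1, a thyroid hormone transporter of astrocytes and vessels, averaged 54.9 ± 11.1 CPM at E17, against 2.94 ± 1.19 CPM at E13 (4.21 ± 0.36, adjusted p = 1.53e-06). Late gains included Gpr37l1, an orphan receptor, at 8.36 ± 3.09 CPM at P1, against 0.728 ± 0.210 CPM at E17, and Slc25a18, a mitochondrial glutamate carrier, at 9.25 ± 1.68 CPM at P1, against 1.06 ± 0.293 CPM at E17. The 2 genes that fell at E17 were Fgfr3, a growth factor receptor of radial glia and astrocytes (47.9 ± 6.38 CPM at E17, against 318 ± 7.45 CPM at E13), and S1pr1, a lipid receptor (29.4 ± 0.813 CPM at E17, against 47.6 ± 3.50 CPM at E13). Etnppl, a gene of mature astrocytes, was the one not tested, with 0 counts at E11, E17 and P1.

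In the early step, the 2 largest called rises of the list at 1 CPM or more were those of Aldoc and Ndrg2. Both genes had their highest mean at E13, as did Fgfr3 (262 CPM at E11 and 318 CPM at E13). Aldoc, the aldolase of astrocytes, averaged 264 ± 22.1 CPM at E13, against 52.8 ± 39.5 CPM at E11 (2.32 ± 0.61, adjusted p = 0.0163), and then 124 and 122 CPM at E17 and P1. The E13 call was lost when only those 2 ages were in the fit (adjusted p = 0.101). Ndrg2, a cytoplasmic protein enriched in astrocytes, averaged 135 ± 9.81 CPM at E13, against 33.5 ± 20.4 CPM at E11 (adjusted p = 0.00517, and 0.05 with only those ages in the fit). At E17 against E13 neither change passed the test, with log2 fold changes of -1.09 for Aldoc (adjusted p = 0.122) and -0.65 for Ndrg2 (adjusted p = 0.174). The E17 means were nonetheless well under those of E13, at 124 ± 9.15 CPM for Aldoc and 85.9 ± 9.40 CPM for Ndrg2 (SD, n = 3 each). The test shares its spread over all 4 ages, and both genes had their largest SD at E11.

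Of the 6 transcription factors that start or drive the making of astrocytes, 5 were higher at E13 than at E11 and none lower, where 22.6% of all tested genes were higher and 17.5% lower. Nfib, a nuclear factor needed for glial differentiation, averaged 971 ± 238 CPM at E13, against 308 ± 111 CPM at E11 (1.66 ± 0.26 on the log2 scale, adjusted p = 0.000708). Nfix averaged 648 ± 172 CPM at E13, against 152 ± 62.7 CPM at E11 (2.09 ± 0.31, adjusted p = 0.000489), and reached 1491 ± 82.9 CPM at P1. Later the list was mixed, with 2 higher and 3 lower at E17 against E13, and 1 higher and 4 lower at P1 against E17, where 73.8% and 49.9% of all genes changed. Zbtb20, which promotes astrocyte production, averaged 228 ± 53.9 CPM at E17, against 87.1 ± 21.9 CPM at E13, and fell at P1 to 116 ± 25.1 CPM. Sox9, required in the progenitors that make glia, averaged 32.5 ± 2.78 CPM at E17, against 125 ± 13.9 CPM at E13 (-1.94 ± 0.10, adjusted p = 1.73e-09). Radial glia markers fell in larger number than they rose, with 3 of 12 higher and 9 lower at P1 against E11 (40.5% of all genes higher and 41.8% lower), and Tnc, a matrix protein, among those that rose (286 ± 35.4 CPM at P1, against 7.56 ± 2.25 CPM at E11).

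Other proteins that astrocytes secrete or shed and that act on synapses changed about as often as all genes at the later ages. Of 8 such genes, none rose and 6 fell at P1 against E11, where 82.3% of all genes changed and 41.8% fell. At E17 against E13, 1 rose and 5 fell, where 73.8% of all genes changed and 37% fell. The early step differed more from all genes: at E13 against E11 none rose and 6 fell, where 40.1% of all genes changed and 17.5% fell. Gpc4, a glypican that recruits glutamate receptors and is also made by progenitors, averaged 18.5 ± 1.11 CPM at P1, against 126 ± 9.97 CPM at E11 (-2.77 ± 0.10 on the log2 scale, adjusted p = 2.22e-11). Chrdl1, a secreted protein of upper-layer astrocytes, averaged 8.33 ± 0.638 CPM at P1, against 3.47 ± 0.757 CPM at E17 (1.28 ± 0.20, adjusted p = 0.000153).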

How the data were processed

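The authors deposited raw read counts per gene, without normalization, for 50600 Ensembl identifiers in each of 12 tables. Per the submitters' processing notes, the tools were STAR 2.5.2b, HTSeq 0.5.3, SAMtools, bcl2fastq 2.18 and DESeq2 1.8.1, with no role stated. The genome build was not given in the sources used here, and neither was the annotation or the strand setting. The count tables' own gene positions are therefore left out (promoter windows are those of RefSeq), and a gene could share reads with an antisense transcript. Symbols and exon lengths came from GENCODE M21, which held 50376 of the identifiers.

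The tests used edgeR 4.0.16 in R 4.3.3. Its filterByExpr, grouped by age with 10 as the minimum count, kept 17847 genes and dropped 32753. After TMM scaling (factors 0.92 to 1.094), all 12 libraries entered a single quasi-likelihood fit with robust estimation and a coefficient for each age. Tests were two-sided, with Benjamini-Hochberg adjustment over all tested genes and a threshold of 0.05, and errors of log2 fold changes are SE. The 3 libraries of an age share their spread with the other ages (common coefficient of variation 0.106), and no library was a copy of another (chi-squared per degree of freedom 9.86 to 28.9). Levels are CPM, counts per 1000000 of the TMM-scaled library, and levels per kb divide them by the union of exons. Bounds set an age without counts to 3 counts in its libraries together, and like the 95% intervals they cover counting error only. The pipeline was tested on simulated data.

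The 10 genes and 20 other gene lists (180 genes) were chosen with earlier results of these data known. Each of the 10 genes is described in every comparison, with the 2 genes nearest to it in centred log2 CPM (prior count 2). The other lists could give, per comparison, up to 2 rises and 2 falls that passed the test, by size, with 1 CPM or more at an age compared, and those that depended on 1 setting are named with that value or not at all. Vim, Emx1, Tbr1 and Etnppl, and levels given across all 4 ages, were added after their values were seen. Alternatives were RLE and upper-quartile factors, library size alone, all genes kept, 1 CPM in 3 libraries, a fit of the 2 ages alone, the replicate letter as block, limma-voom (limma 3.58.1), DESeq2 1.42.0, each library left out in turn, and E11 C, E13 C and E17 A left out together.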

Additional observations from a re-analysis of the deposited data

How the results depend on the processing

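In the 22 alternative settings, the number of the 10 genes called was 3 to 5 for E13 against E11 (4 as reported), 9 to 10 for E17 against E13, 5 to 8 for P1 against E17 (7 as reported) and 9 to 10 for P1 against E11. The 9 came from the filter of 1 CPM in 3 libraries, which removed S100b. Of 872 alternative values of single log2 fold changes, 837 kept their direction and their side of the threshold, 20 fell short of it, 12 newly passed it and 3 changed sign. Both genes with a change of sign did so at E13 against E11, and neither passed the test there: Aldh1l1 was -0.85 (without E13 C, adjusted p = 0.0848) to 0.92 with single libraries left out and -0.42 with E11 C, E13 C and E17 A left out together, and S100b was -0.41 to 1.29. The replicate block left the 10 genes at 4, 10, 7 and 10 calls in the 4 comparisons. The letters do not pair the libraries: animals came from different litters, deviations of libraries with the same letter correlated at -0.343 to 0.330, and 1 of 12 correlated best with its own letter. Scaling by library size alone moved the median of all genes by -0.18 on the log2 scale at E17 against E13 and by -0.23 at P1 against E11. At E17 against E13 it put the share of called genes that were higher at 39.8%, against 49.8% as reported. The rare genes are limited by depth: S100b had 2 and 4 counts in all at E11 and E13, and Gjb6 none at E17 and 22 at P1.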
